A study of Mus musculus with 4 samples.

Results

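The genes of 10 transcription factors that act in blood stem cells were examined for peaks of phosphorylated ATF2: Runx1, Lyl1, Tal1, Gata2, Fli1, Erg, Hlf, Meis1, Mecom and Lmo2. They were chosen by name out of 21883 protein-coding genes, with earlier results of these data known. CUT&Tag, in which an antibody tethers a transposase that cuts and tags the DNA beside it, was carried out on haematopoietic stem cells of wild-type C57BL/6J mice, sorted from bone marrow as CD48-CD150+ LSK cells. The antibodies recognise phospho-T69/71 and phospho-S490/498 of ATF2, and each was used for 2 libraries of 2000 to 5000 cells, numbered here as the labels number the replicates. In the antibody field of the first pair the site reads T67/71. All 4 libraries share genotype and treatment, no IgG or input library is analysed here, and no label ties a library to a mouse, so the spread between libraries may be technical. No age or sex is stated for the mice.

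Runx1, Lyl1, Tal1, Gata2, Fli1, Erg and Lmo2 form a set of factors that bind many of the same enhancers in blood progenitors. Tal1 and Lyl1 are helix-loop-helix proteins that pair with E proteins, Lmo2 is the adaptor that links them to GATA factors, Fli1 and Erg belong to the ETS family, and Runx1 binds DNA with its partner Cbfb. Hlf is itself a leucine-zipper factor, Meis1 is a homeodomain cofactor of Hox proteins and Mecom is a zinc-finger protein, all 3 known for their part in stem cell maintenance. ATF2 is a leucine-zipper factor of the ATF/CREB family, whose consensus site is the palindrome TGACGTCA, the cAMP response element (CRE).

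The deposited data are lists of peaks, 1 list per library, each peak with its position, its summit and a fold enrichment over the local background. The lists held 12464 and 14716 peaks for T69/71 libraries 1 and 2, and 7132 and 435 for S490/498 libraries 1 and 2. A peak was assigned to a gene by its summit, which lay at most 1 kb from an annotated end (a gene-end peak), inside the gene beyond that (intragenic) or outside it within 100 kb (distal). By this rule the 10 genes had 43, 60, 20 and 1 peaks in these lists, in that order. At least 1 peak was counted for 10, 10, 9 and 1 of the 10 genes, against 72.6%, 75.3%, 61.9% and 4.92% of all protein-coding genes. Merging overlapping peaks of the 4 lists gave 84 regions, of which 5 were at gene ends, 33 intragenic and 46 distal. The peaks rested on few fragments. The pileup at the summit, recovered from fold and p, had a median of 9, 7.5 and 8.5 fragments in the 3 longer lists. The 1 peak of S490/498 library 2 had 26. The settings used to call the peaks are not stated. What 1 unit of pileup counts is thus not certain, and it is called a fragment here. Where a gene has no peak, none was detectable at this depth. Median fold enrichment at the 10 genes was 5.74, 5.56 and 6.06 in the 3 longer lists, against 6.02, 6.52 and 6.05 over all peaks of the same lists.

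Runx1, Lyl1 and Hlf had a gene-end peak in both T69/71 libraries and in S490/498 library 1, and each of these peaks lay at the annotated start. Their promoters are shown because they are the places where the 10 genes carried a peak in 3 lists at a gene end. The sequences run 5′ to 3′ on the gene's strand, from 250 bases before to 50 bases after the start, and are RefSeq sequences of GRCm38.p6. Capitals mark the CRE in Hlf (chr11:90390868-90391167, minus strand), an E-box CANNTG, the site of helix-loop-helix factors, in Lyl1 (chr8:84701207-84701506, plus strand), and RUNX sites TGTGGT, read on the opposite strand, in the distal promoter of Runx1 (chr16:92826025-92826324, minus strand).
Hlf: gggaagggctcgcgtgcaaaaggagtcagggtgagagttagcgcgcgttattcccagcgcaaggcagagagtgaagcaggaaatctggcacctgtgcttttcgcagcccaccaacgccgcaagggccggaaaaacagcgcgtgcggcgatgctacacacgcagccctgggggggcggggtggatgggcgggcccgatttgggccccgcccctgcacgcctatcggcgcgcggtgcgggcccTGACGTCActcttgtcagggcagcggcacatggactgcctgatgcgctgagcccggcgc
Lyl1: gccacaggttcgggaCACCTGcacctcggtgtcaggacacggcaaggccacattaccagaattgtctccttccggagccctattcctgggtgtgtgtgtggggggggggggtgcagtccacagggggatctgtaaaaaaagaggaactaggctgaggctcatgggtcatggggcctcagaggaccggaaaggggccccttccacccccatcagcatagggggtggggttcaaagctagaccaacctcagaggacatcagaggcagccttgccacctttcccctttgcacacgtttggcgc
Runx1: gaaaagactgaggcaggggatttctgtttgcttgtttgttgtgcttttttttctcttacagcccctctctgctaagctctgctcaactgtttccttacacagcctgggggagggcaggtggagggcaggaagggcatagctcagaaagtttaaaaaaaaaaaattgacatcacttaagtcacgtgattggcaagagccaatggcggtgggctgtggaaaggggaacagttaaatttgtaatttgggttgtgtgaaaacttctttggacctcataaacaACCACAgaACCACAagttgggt

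Hlf was the only one of the 10 genes whose promoter in this table held a full CRE. The table has 14 starts of 8 of the genes; Fli1 and Lmo2 are not in it. In Hlf the CRE spanned 90390919 to 90390926 on chromosome 11, 9 to 2 bases before the start. It lay inside the Hlf peak of each of the 3 longer lists, with the summit 26 and 12 bp from its centre in T69/71 libraries 1 and 2 and 38 bp in S490/498 library 1. The E-box marked in Lyl1 lay outside the peak in these lists, 228, 208 and 296 bp from their summits. Of 32851 promoters of the same length, 588 (1.79%) held TGACGTCA. Among those, 49% had a peak within 1 kb of the start in both T69/71 libraries and 52.6% in S490/498 library 1, against 15.5% and 13% of the promoters without it. Base composition differed too, with a median GC content of 59.8% with the motif, 52.7% without it and 67.3% in Hlf, and its part in these shares was not tested.

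The other motifs searched on both strands were the CRE variant TTACGTCA, the CRE core TGACGT (which also lies in the full CRE), the AP-1 site TGACTCA, the GATA site AGATAA, the E-box CANNTG, the ETS site GGAAGT and the RUNX site TGTGGT. Neither TTACGTCA nor TGACTCA was found at any of the 14 starts; 0.499% and 5.20% of all promoters held them. TGACGT was found only in Hlf, within the full CRE, and in 7.51% of all promoters. AGATAA was found at the first start of Tal1 and a downstream start of Erg (11.2% of all promoters), GGAAGT at Meis1 (23.8%), and TGTGGT at Meis1 and the distal start of Runx1 (16.8%). At least 1 E-box was found at 8 of the 14 starts and in 72.3% of all promoters. A match describes these letters and is not a binding site by itself.

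In Hlf the fold enrichment at the start was 6.91 and 5.98 in T69/71 libraries 1 and 2 and 11.8 in S490/498 library 1, with no peak in library 2. The Hlf value was thus higher in the S490/498 library than in either T69/71 library, each fold being relative to its own library. By −log10 q the peak ranked 743 of 7132 in that S490/498 list, and 4736 of 12464 and 9067 of 14716 in the T69/71 lists. At Lyl1 the fold was 9.10 and 7.56 in the T69/71 libraries and 6.32 in S490/498 library 1, with no peak in library 2. Here the order was the opposite of that at Hlf. The Lyl1 peaks held the most fragments of the gene-end peaks of the 10 genes, 45, 37 and 20 at the summit, and their summits lay 5 and 24 bp before and 63 bp after the start.

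At Runx1 the peaks sat at the distal of the 2 promoters from which this gene is transcribed. Their fold was 4.24 and 4.32 with T69/71 and 6.49 in S490/498 library 1, with no peak in library 2. The summits were 283 and 128 bp downstream and 36 bp upstream of the start, so that the 3 peaks overlapped but their summits spanned 319 bp, with 9, 13 and 10 fragments at the summit. The 2 marked RUNX sites lay inside the peaks of T69/71 library 2 and S490/498 library 1 and outside that of T69/71 library 1. With −log10 q of at least 5, Runx1 no longer had a gene-end peak in either T69/71 library, and 2 genes were left in place of 3. The proximal Runx1 promoter had a peak only in T69/71 library 2, 172 bp upstream of its start, with a fold of 4.98. As this promoter lies inside the gene, away from both ends, its peak was counted as intragenic and not as a gene-end peak.

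Tal1 and Meis1 had a gene-end peak in 1 list each. In Tal1 it was in T69/71 library 1, 488 bp downstream of the start, with a fold of 4.38. In Meis1 it was in T69/71 library 2, 24 bp upstream of the start, with a fold of 5.44. Gata2, Fli1, Erg, Mecom and Lmo2 had none in any list. Counted over the 10 genes, 4 had a gene-end peak in each T69/71 library, where 27.5% and 27.9% of all protein-coding genes did, and 3 had one in both, against 21.1%. In S490/498 library 1 it was 3 of 10 against 17.9%, and in library 2 it was 0 of 10 against 0.224%. The same 3 genes met the rule in both T69/71 libraries and S490/498 library 1, as did 14.2% of all genes. With 10 genes, these counts are too small to set the genes apart from the background.

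**Figure D1:**
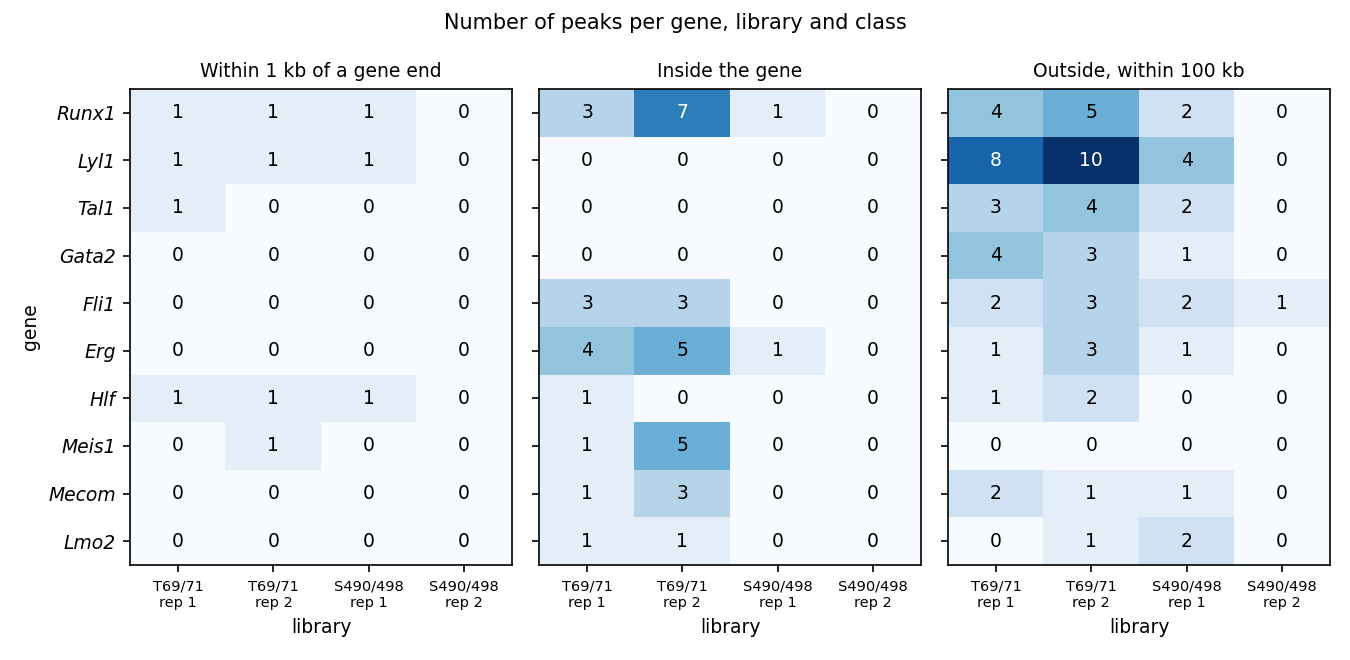
Number of peaks (cell value and shade) for each of the 10 genes in each library, for summits within 1 kb of a gene end, inside the gene and outside it within 100 kb. Gene-end peaks number at most 1 per gene and library, whereas Runx1 reaches 7 intragenic peaks and Lyl1 10 distal peaks in T69/71 library 2.

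Most intragenic peaks of these genes came from the T69/71 libraries, whose lists are longer, and there they outnumbered gene-end peaks. There were 14 and 24 in the T69/71 libraries, 2 in S490/498 library 1 and 0 in library 2. In both T69/71 lists, most of these peaks ranked below the first 7132 by −log10 q, the length of the S490/498 library 1 list. By gene, 7 and 6 of the 10 had an intragenic peak in T69/71 libraries 1 and 2, against 13.7% and 15.9% of all protein-coding genes, 2 in S490/498 library 1, against 8.18%, and 0 in library 2, against 0.644%. Runx1, Fli1, Erg, Meis1, Mecom and Lmo2 were the 6 genes with one in both T69/71 libraries, against 9.17%. Runx1 and Erg were the 2 that also had one in S490/498 library 1, against 5.06%. Long genes meet this rule more often, and the 5 of the 10 genes that are over 100 kb all met it, against 29.4% of all genes of that length. In S490/498 library 1, 2 of these 5 had an intragenic peak (Runx1 and Erg), against 25.4%. The count is of genes, not sites: 6 intragenic regions had a peak in both T69/71 libraries, 2 each in Runx1 and Fli1 and 1 each in Erg and Meis1, whereas in Mecom and Lmo2 the libraries had peaks at different places.

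Measured per length, the gene bodies of the 10 genes held 10.3 and 17.6 peaks per Mb in T69/71 libraries 1 and 2. Over all protein-coding genes the densities were 4.08 and 5.26 per Mb, so that the 10 genes had 2.52 and 3.35 times as many. The exact Poisson 95% intervals, which cover counting error only, were 5.62 to 17.3 and 11.3 to 26.2. In S490/498 library 1 the density was 1.47 per Mb (0.178 to 5.31), against 2.14 over all genes. The genes with 100 kb on each side had 12.7, 17.7 and 5.92 peaks per Mb in the same 3 libraries, 2.03, 2.42 and 1.66 times the density around all genes. There the interval of S490/498 library 1 was 3.61 to 9.14, just above the 3.56 around all genes. The S490/498 value in gene bodies rests on 2 peaks, its interval takes in the density over all genes, and its list is the shorter one. No test of the antibodies against each other was made on this density. Nor was the density computed with a stricter q or with equal numbers of peaks.

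**Figure D2:**
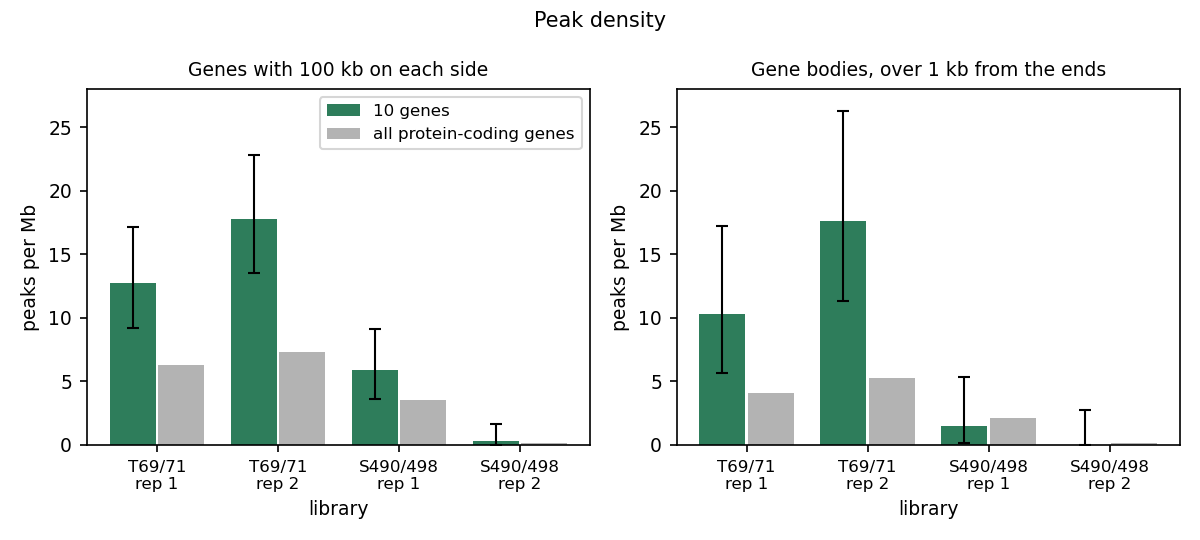
Peaks per Mb in each library, for the genes with 100 kb on each side and for gene bodies over 1 kb from the ends. Green bars are the 10 genes with exact Poisson 95% intervals and grey bars all protein-coding genes; the green intervals of the T69/71 libraries lie above the grey bars in both, and that of S490/498 library 1 does so only with 100 kb on each side.

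Runx1 had 15 regions over the gene and 100 kb around it, the most of the 10 genes. The +23 kb element, an intronic enhancer active in emerging and adult blood stem cells, was looked up by distance from the distal start with 1.5 kb either way. Only T69/71 library 2 had a peak there, with its summit 24.3 kb downstream (chromosome 16, 92801687 to 92801963), a fold of 6.69 and 16 fragments at the summit. A second peak of the same list had its summit at 25.0 kb, just outside the window, with a fold of 5.01. Neither T69/71 library 1 nor either S490/498 library had a peak at the element. Of the 8 intragenic Runx1 regions, 5 were found in this 1 library, among them the proximal promoter peak and peaks 3.8 and 39.1 kb downstream of the start with folds of 7.50 and 8.70. Without T69/71 library 2, the +23 kb element would thus have no peak in these data.

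Other parts of Runx1 were shared between lists. A region inside the gene, 110.4 kb downstream of the distal start (chromosome 16, 92715566 to 92715814) had a fold of 5.56 and 8.60 with T69/71 and 4.01 in S490/498 library 1, and was the only intragenic region of the 10 genes with a peak in 3 lists. A region 205.1 kb downstream had a peak in both T69/71 libraries (5.62 and 6.48) with summits 5 bp apart. Blood enhancers of Runx1 have been described near both distances, a match noted from background knowledge after these positions were seen. In the 100 kb upstream of the gene, where the RefSeq table holds no other gene, 2 regions had a peak in 3 lists. The region 41.4 kb upstream had a fold of 6.93 and 4.65 with T69/71 and 10.0 in S490/498 library 1. The region 58.1 kb upstream had 7.94, 6.75 and 5.13. The S490/498 value was the highest of the 3 at the first of these regions and the lowest at the second.

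**Figure D3:**
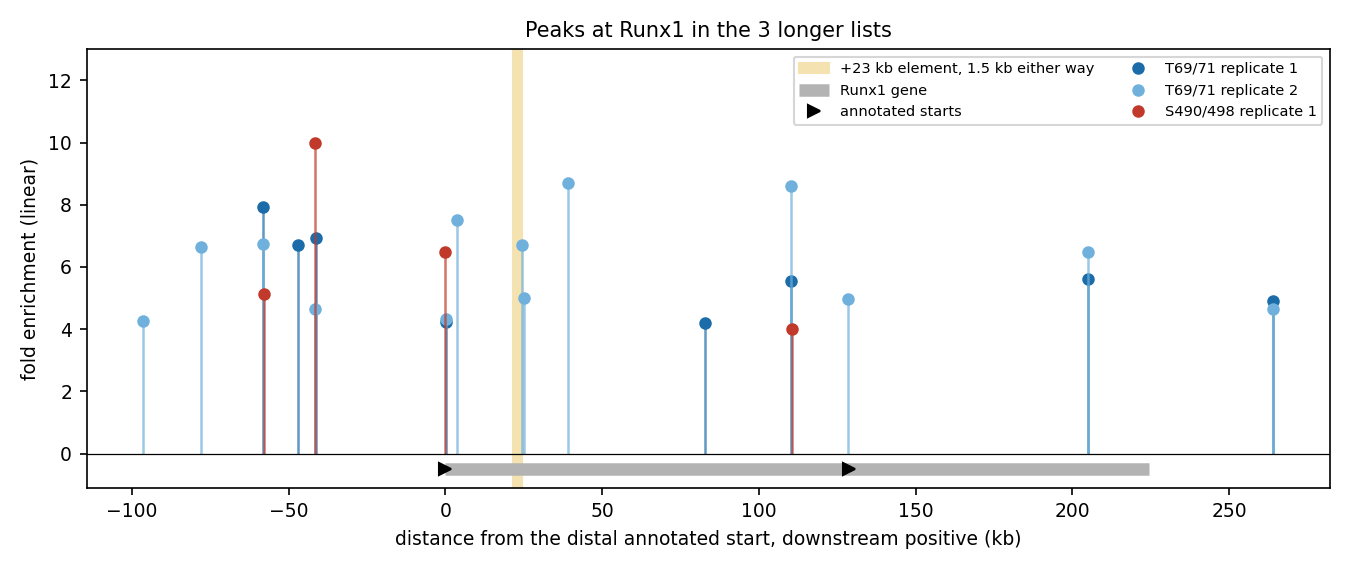
Fold enrichment (linear axis) of every Runx1 peak in the 3 longer lists against distance from the distal start, with downstream positive; S490/498 library 2 had none. The pale band is the +23 kb element with 1.5 kb either way, where only T69/71 library 2 has a summit, and the points at 110.4 kb come from 3 libraries.

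The helix-loop-helix genes differed from each other. Around Lyl1, a gene of 3.29 kb, there were 14 regions, with 13 of them distal, the highest number per length of the 10 genes (6.89 per 100 kb). The region 44.5 kb upstream of Lyl1 (chromosome 8, 84656713 to 84657115) had a fold of 10.4 and 11.2 with T69/71 and 8.84 in S490/498 library 1, and its summits lay within 34 bp. The next region, 38.6 kb upstream, lay at an end of Ier2, an immediate early gene, with folds of 6.01, 3.96 and 6.43. A further region 37.3 kb upstream, outside Ier2, had folds of 6.58, 9.81 and 6.43 with the summit at the same base in all 3 lists. On the other side, 6 distal regions lay inside the neighbouring gene Nfix, and 1 of them had a peak in more than 1 list. From position alone, peaks that act on Lyl1 and peaks that act on its neighbours cannot be told apart.

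Tal1 had no intragenic peak and 5 distal regions. The one with a peak in 3 lists lay 56.4 kb upstream at an end of the neighbour Stil, with folds of 7.33, 8.12 and 6.64. Of the 3 Tal1 elements looked up, the −4 kb and +19 kb enhancers, which drive expression in blood progenitors, had no peak in any list. The +40 kb element, known as an erythroid enhancer, had a peak in both T69/71 libraries, 39.5 kb downstream, with folds of 4.55 and 4.45 and 7 and 6 fragments at the summit. Neither S490/498 library had a peak there. Lmo2 had 5 regions, each in 1 list only, with folds between 3.42 and 5.23.

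Gata2 had neither a gene-end nor an intragenic peak in any list. Its +9.5 kb intronic enhancer, which is required for blood stem cell emergence, therefore had none. The −77 kb enhancer had a peak in T69/71 library 1 (chromosome 6, 88116629 to 88117390), with a fold of 6.95, and in S490/498 library 1, with 5.38. Its summits were 77.2 and 76.9 kb upstream of the start, and no peak lay there in T69/71 library 2 or S490/498 library 2. It was the only region of the 10 genes found in 1 T69/71 library and S490/498 but not in the other T69/71 library. Another region, 60.4 kb downstream, had 9.22 and 4.96 with T69/71. In all, 3 of the 6 elements looked up at Runx1, Tal1 and Gata2 had a peak in some list, and none had one in more than 2. No share of windows of the same size elsewhere was set beside this count.

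The ETS genes Fli1 and Erg had no gene-end peak. Inside Fli1, 2 regions had a peak in both T69/71 libraries. The one 3.97 kb below the upper end of the gene had folds of 6.71 and 8.47, and the one 33.6 kb below it had 5.16 and 6.01. Erg had 9 intragenic regions, of which 8 were in a single list; the exception, 147.3 kb downstream of its first start, had folds of 4.60 and 5.96 with T69/71. The nearest summit to an end of Erg was 17.4 kb away.

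The strongest peak of the 10 genes, and the only region with a peak in all 4 lists, lay 66.7 kb below the lower end of Fli1 (chromosome 9, 32354458 to 32356397). Its highest fold was 10.2 and 26.5 in T69/71 libraries 1 and 2, 10.3 in S490/498 library 1 (which split it into 2 peaks) and 6.63 in library 2. T69/71 library 2 had the highest value and S490/498 library 2 the lowest, and the 2 libraries of each antibody differed from each other. At 104 fragments T69/71 library 2 had the deepest pileup at any of the 10 genes. The region lay inside the long noncoding RNA gene Gm39317, and the gene Kcnj1 lies between it and Fli1. Whether signal arises there with any antibody was not tested.

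Meis1 had 5 intragenic regions and no distal one. The list of T69/71 library 2 had a peak in all 5, and 4 of them were in that list alone. The shared region lay 48.9 kb downstream of the start (chromosome 11, 18969987 to 18970412), with folds of 8.0 and 8.70 and summits 22 bp apart. Mecom, the longest of the 10 genes at 558.5 kb, had the fewest regions per length, 0.791 per 100 kb. Its 4 intragenic regions were each in 1 list, and its only region in 3 lists lay 92.8 kb upstream at an end of Mynn (10.9, 7.28 and 6.91). Hlf had, besides its promoter, a distal region at an end of Mmd with 7.0 and 9.21 in the T69/71 libraries.

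**Figure D4:**
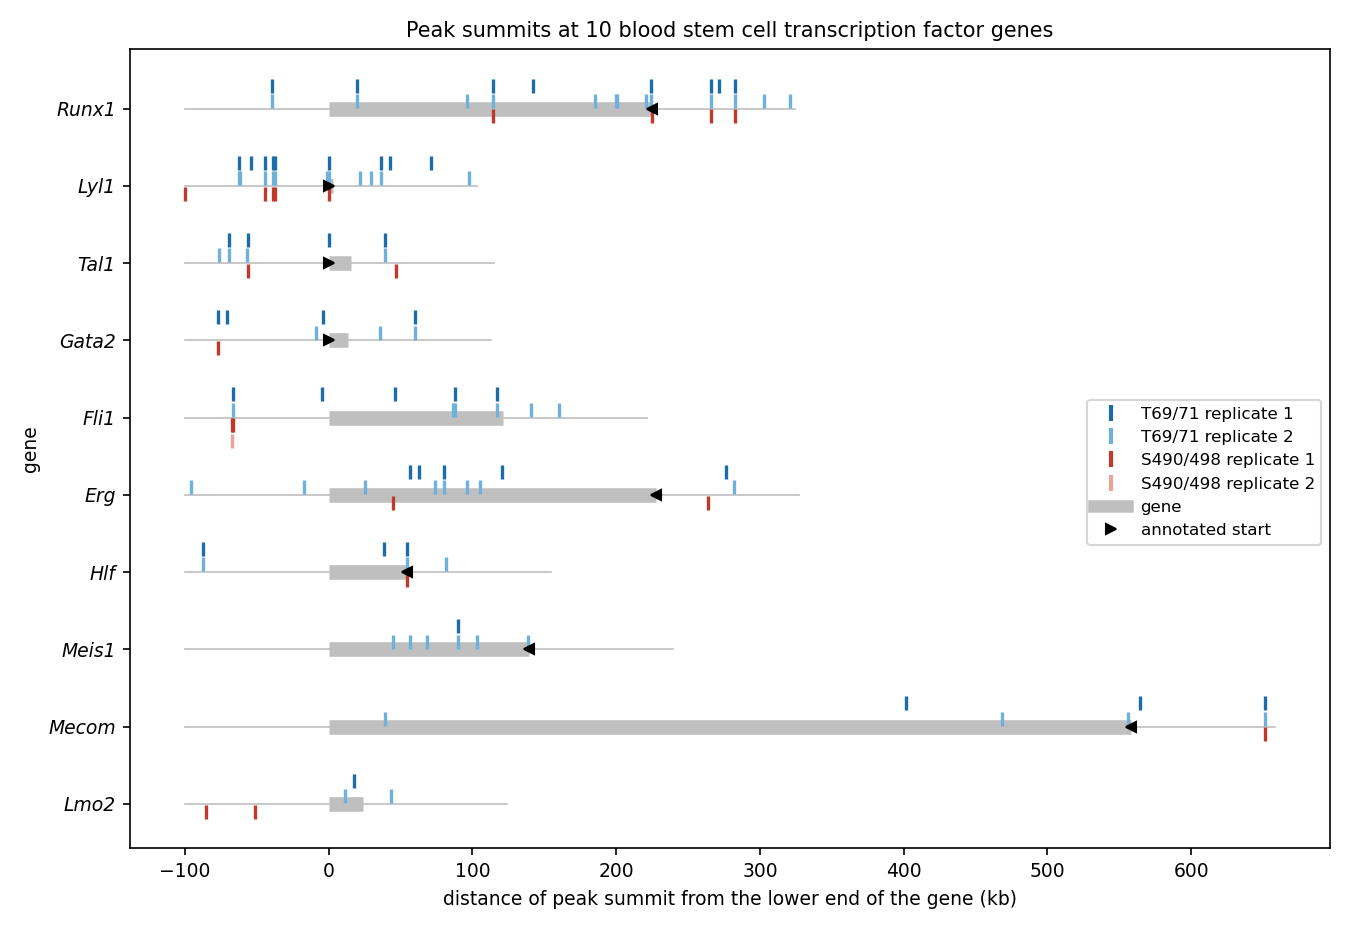
Position of every peak summit at the 10 genes, as distance from the lower end of the gene (kb), with 1 row per gene, the gene as a grey bar, and colour and height marking the library. Arrowheads mark the annotated start where the promoter table gives one; summits of 3 colours line up at the starts of Runx1, Lyl1 and Hlf, and most intragenic summits stand alone.

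Distal peaks were the most common class but are also common at other genes. Of the 10 genes, 8, 9, 8 and 1 had a distal peak in T69/71 libraries 1 and 2 and S490/498 libraries 1 and 2, against 67.1%, 70%, 55.3% and 4.13% of all protein-coding genes. In both T69/71 libraries it was 8, all but Meis1 and Lmo2, against 61.9%, and 7 of these also had one in S490/498 library 1, against 50.5%. The exception among the 8 was Hlf.

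Most regions of the 10 genes were found in 1 list. Of the 84 regions, 59 (70.2%) had a peak in a single library, against 62.2% of all 21877 regions, and 25 (29.8%) in more than 1, against 37.8%. The largest group was the 35 regions found only in T69/71 library 2; 18 were found only in T69/71 library 1 and 6 only in S490/498 library 1. By class, 3 of 5 gene-end regions, 6 of 33 intragenic and 16 of 46 distal regions were in more than 1 list, with no test between classes. The share over all regions was not split by class, so whether intragenic regions elsewhere are shared as rarely was not tested. Of the 12 regions with a peak in at least 3 lists, 3 were at gene starts, 1 was intragenic and 8 were distal, and 3 of the distal ones lay at an end of another protein-coding gene.

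The share of peaks found with both antibodies at these genes had an interval that takes in the genome-wide share. Of the 24 regions in both T69/71 libraries, 12 (50.0%, exact binomial 95% interval 29.1 to 70.9) had a peak in S490/498 library 1, against 59.3% of all regions in both T69/71 libraries. By class these were 3 of 3 gene-end regions (29.2 to 100%), 1 of 6 intragenic regions (0.421 to 64.1%) and 8 of 15 distal regions (26.6 to 78.7%), and the intervals overlap. No share by class over all regions was set beside them. Conversely, 13 of 19 regions of S490/498 library 1 (68.4%, 43.4 to 87.4) had a partner in either T69/71 library, against 75.5% of all its regions. Between the T69/71 libraries, 24 of the 43 regions of library 1 (55.8%, against 56.6% of all) were found in library 2, and 24 of the 59 regions of library 2 (40.7%, against 48.4%) in library 1. Counted by peak, fewer of either library were found in S490/498 library 1, whose list is shorter. They were 30.2% of the 43 peaks of T69/71 library 1 and 20.0% of the 60 peaks of T69/71 library 2.

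**Figure D5:**
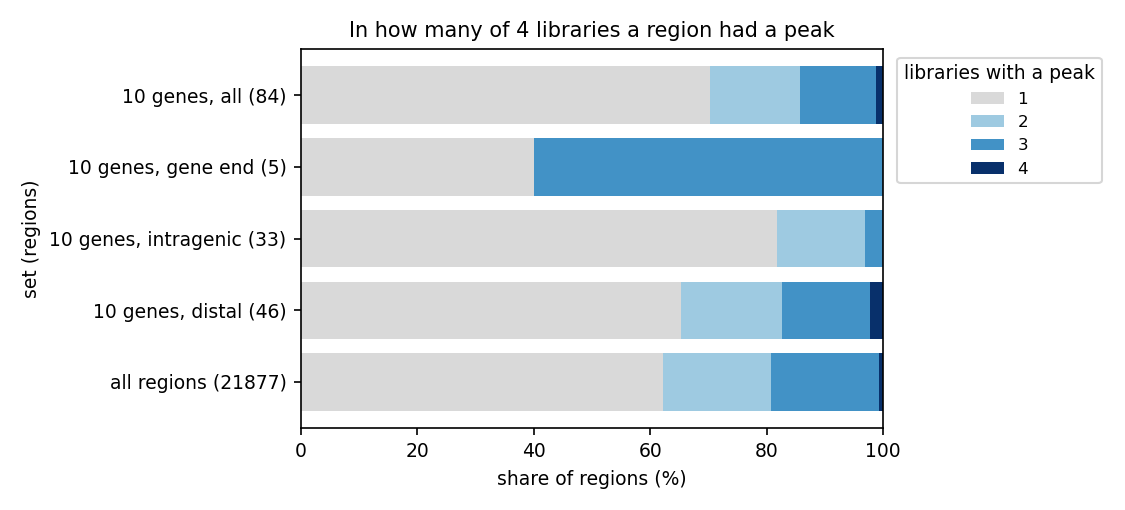
Share of regions (%) with a peak in 1, 2, 3 or 4 libraries, for all regions of the 10 genes, for each class and for all regions of the 4 lists, with the number of regions in brackets. The gene-end bar rests on 5 regions, and the intragenic bar has the largest share in 1 library, 81.8%. The bar for all regions is not split by class.

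As a share of all peaks of a library, the 10 genes took 0.345% and 0.408% with T69/71 and 0.280% and 0.230% with S490/498. The means were 0.376% and 0.255%, and the groups did not overlap. The difference of 0.121 percentage points had an exact two-sided permutation p of 0.333, the smallest that 2 libraries against 2 allow. The value of S490/498 library 2 rests on 1 peak (exact binomial 95% interval 0.00582% to 1.27%). With only peaks of −log10 q of at least 5 the difference turned to -0.0341 points (exact permutation p = 0.667). With the longer lists reduced to the 7132 peaks of highest −log10 q it was 0.0112 points (exact permutation p = 0.667).

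Other genes of the network were looked at by the gene-end rule, with a list of 35 cofactors and lineage regulators. Gene-end peaks were present at 16 and 19 of them in the T69/71 libraries (against 27.5% and 27.9% of all genes), 9 in S490/498 library 1 (against 17.9%) and 0 in library 2 (against 0.224%). In all, 13 (37.1%) had one in both T69/71 libraries, against 21.1% of all genes and 3 of the 10 genes above. Those that also had one in S490/498 library 1 included Tcf3, which encodes an E protein partner of Tal1 and Lyl1, with folds of 14.4, 9.80 and 12.0; Nfe2, a leucine-zipper factor of the platelet lineage, with 13.1, 12.1 and 10.4; Runx3, a Runx1 relative, with 12.7, 13.3 and 8.64; and Ssbp2, Zfpm1, Hhex, Cebpa and Elf1, the last with a peak that also lies at an end of Wbp4. Cbfb, the partner of Runx1, had 7.79 and 6.06 with T69/71 and no peak with S490/498. Ldb1, which joins the Lmo2 complex, had none.

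Peaks do not measure expression, so the labelled cell type could not be checked by its markers here. Gene-end peaks in both T69/71 libraries were found at 0 of 10 stem cell markers, 0 of 6 each of B cell, erythroid and endothelial or stromal markers, 1 of 6 T cell markers (Cd3d) and 1 of 6 neutrophil markers (Mpo), where 21.1% of all genes had one.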

How the data were processed

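Peak lists of 4 CUT&Tag libraries were analysed, 2 per antibody. Per the submitters' processing notes, the authors used FastQC 0.11.5, Bowtie2 2.2.9, MACS2 and ChIPseeker with the build mm10; no source used here gives MACS2 settings or the handling of duplicate reads. Values deposited by the authors for a peak are its fold over background, which is a ratio, its −log10 p and −log10 q, and a score equal to 10 times −log10 q without its decimals. In the deposited lists −log10 q began at 1.31 to 1.39, so they hold peaks with q under 0.05. Each library has a list of its own. Peaks on chromosomes 1-19, X and Y were used; 25, 28, 16 and 41 peaks on other sequences were left out.

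Genes, ends and promoter sequences came from RefSeq tables of GRCm38.p6, the same assembly as mm10. The start was taken from the promoter table, and ends from the gene table. Overlap of at least 1 bp counted as shared. The pileup at the summit, given as fragments, was solved from fold, (pileup + 1)/(background + 1), and the Poisson p, to within 0.001 of −log10 p. All 10 genes are named; regions were named when they were at a gene end or in at least 3 lists, and others singled out were chosen after their values were seen. The members and lists were chosen with earlier results of these data known. Background shares are over all protein-coding genes by the same rule. Shares of a library were compared by permuting the antibody labels over the 4 libraries (exact, two-sided), and no test was made over genes or regions. Alternatives varied the q threshold, the windows, the overlap, the number of peaks and the libraries. Classification, overlap and motif search were tested on simulated data. Python 3.11.15, numpy 2.4.6, pandas 2.3.3, scipy 1.17.1 and matplotlib 3.10.9 were used.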

Additional observations from a re-analysis of the deposited data

How the results depend on the processing

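The count of 3 genes with a gene-end peak in both T69/71 libraries was 3 with windows of 500 bp or 2 kb and with the annotated start only, 2 with −log10 q of at least 5, and 4 in either T69/71 library alone. Peak counts depended on the threshold: with −log10 q of at least 5, the 10 genes had 20 and 30 peaks in the T69/71 libraries and 11 in S490/498 library 1. With a distal reach of 50 kb, S490/498 library 1 had 11 and library 2 had 0. When the longer lists were reduced to the 7132 peaks with the highest −log10 q, the T69/71 libraries had 21 and 17 peaks against 20 in S490/498 library 1. The share of T69/71 regions with a peak in S490/498 library 1 lay between 41.7% and 60.0% under the other settings with both T69/71 libraries, and was 20.0% to 30.2% when the peaks of a single T69/71 library were used. The antibody difference in the share of peaks was -0.0341 points with −log10 q of at least 5, 0.0112 points with equal numbers of peaks and 0.208 points with a distal reach of 50 kb, and lay between 0.0898 and 0.153 without each library in turn. With a replicate block (differences within replicate number) it was 0.121 points, with an exact sign-flip p of 0.5, the smallest that 2 pairs allow. The labels do not say what a replicate number pairs; across the 157 regions in all 4 lists, the replicate differences in log2 fold of the antibodies correlated with r = 0.33, a description across regions. Of the 51 alternatives, 1 turned the direction of the antibody difference, the only result here that has a direction. Another 8 were classed as moved, all of them peak counts or the share of regions. Windows of 500 bp and 2 kb at gene ends only move peaks between classes. They could not change the peaks per library, the share with S490/498 library 1 or the antibody difference. The small number of fragments per peak limits all counts, and a site without a peak may have been missed.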
